A study of Mus musculus with 2 samples.

Results

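The PGC-1 coactivators and the nuclear factors they work with were followed in gastrocnemius muscle of mice lacking PGC-1β in myofibres. Members were taken by gene symbol. They were the 3 coactivators (Ppargc1b, Ppargc1a and Pprc1), the 3 estrogen-related receptors (Esrra, Esrrb and Esrrg), the 2 nuclear respiratory factors (Nrf1 and Gabpa) and 2 peroxisome proliferator-activated receptors (Ppara and Ppard), that is 10 of 19936 named nuclear genes on the arrays. Ppargc1a was measured with 2 probe sets and the other 9 members with 1 each. The tested muscle came from PGC-1β(i)skm-/- mice, which carried floxed PGC-1β alleles and the HSA-Cre-ERT2 transgene. This transgene is driven by human skeletal actin regulatory elements, so that recombination takes place in myofibres and not in the other cells of the muscle. Control mice were littermates with the same floxed alleles and without the transgene, according to the study's methods, whereas the sample labels call them wild-type. Mice were male and of the C57BL/6 strain, tamoxifen was given to both genotypes at 7 weeks of age, as 5 daily doses of 1 mg, and muscle was taken at 8 weeks. Each genotype was 1 array, hybridized with RNA pooled from 3 mice, so that there are no replicates, no error and no test, and the presence of the transgene cannot be told apart from the deletion.

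PGC-1 coactivators do not bind DNA. They dock on transcription factors through LXXLL motifs, recruit acetyltransferases and the Mediator complex, and thereby raise transcription of genes of mitochondrial biogenesis and oxidative metabolism. Estrogen-related receptors (ERRs) are orphan nuclear receptors that need no ligand and depend largely on PGC-1 for their activity. NRF-1 and GABPA, the DNA-binding subunit of NRF-2, act on promoters of respiratory chain and mitochondrial maintenance genes, and PPARα and PPARδ sense fatty acids and control their oxidation. In skeletal muscle, PGC-1α is well known to respond to exercise.

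Values are log2 signals, and a difference is that of the PGC-1β(i)skm-/- array minus that of the control array. Following the study's methods, genes were called lower where the ratio of both signals did not exceed 0.8 and higher where it reached 1.2. Over all named nuclear genes, 0.652% were lower, 1.64% were higher and 50.2% had a difference below 0, and the standard deviation (SD) of the difference was 0.12. This SD describes the spread between genes on these 2 arrays, not that between mice. The median signal over all probe sets was 6.02 on the PGC-1β(i)skm-/- array and 6.00 on the control array. The 14 skeletal muscle markers listed had signals between 10.58 (Myh7) and 13.91 (Acta1) on the PGC-1β(i)skm-/- array and between 10.62 (Myh7) and 13.88 (Acta1) on the control array. All 14 lay in the brightest of 4 equal bins of genes by mean signal, and their differences had a median of 0.01.

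Ppargc1b, the gene deleted in the mutants, had a signal of 7.06 on the PGC-1β(i)skm-/- array and 7.87 on the control array. The ratio was 0.569, a change of −43.1% in the mutant pool. It was the member with the largest difference (−0.81), and the one of 10 members past either threshold, beside the 0.652% of all genes at a ratio of 0.8 or less. The difference was at rank 1 from the lowest of all 19936 genes, at −6.65 SD on the scale of the genes of its signal bin. The deletion removes exon 5, which encodes the third LXXLL motif, whereas probes of this array type are spread along the transcript, so that the signal is a partial check of the deletion. In whole muscle, fewer cells of a type and less RNA per cell cannot be told apart, and RNA of cells that did not recombine is part of the signal. Among 3050 other genes with a mean signal within 0.5 of that of Ppargc1b, those with the nearest differences were Cxcl9, an interferon-inducible chemokine (−0.72), BC048679 (−0.57) and Qrsl1, of mitochondrial glutaminyl-tRNA synthesis (−0.49). The likeness rests on 1 difference between 2 arrays.

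Ppargc1a, encoding PGC-1α, had a signal of 10.29 on the PGC-1β(i)skm-/- array and 10.18 on the control array, a difference of 0.11 and a ratio of 1.08. Its other probe set had 9.26 on the PGC-1β(i)skm-/- array and 9.13 on the control array, a difference of 0.14. Both probe sets were thus slightly higher in the mutant pool and under the threshold, and 15.5% of all genes had a difference at or above that of the brighter one. Pprc1, encoding the PGC-1-related coactivator PRC, had 6.80 on the PGC-1β(i)skm-/- array and 6.77 on the control array, a difference of 0.03. The difference of Ppargc1b minus that of Ppargc1a was −0.92, and minus that of Pprc1 it was −0.84, so that within the family the lower signal was that of the targeted gene.

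**Figure D1:**
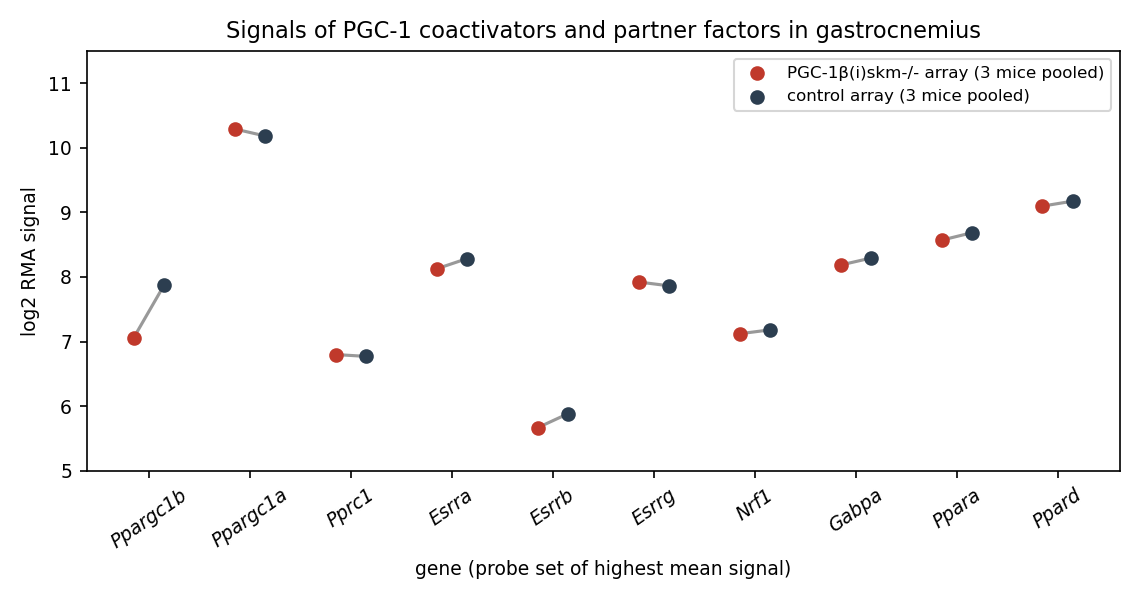
Log2 RMA signal (vertical axis) of the probe set of highest mean signal of each member (horizontal axis), on the PGC-1β(i)skm-/- array (red, left point of each pair) and the control array (dark, right point), each 1 pool of 3 mice without an error. The pair of Ppargc1b is set apart by a difference of −0.81, and the other differences lie between −0.22 and 0.11; heights of different genes are not comparable, since probes differ.

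The ERRs had differences in both directions. Esrra, the ERR best known from oxidative muscle, had a signal of 8.13 on the PGC-1β(i)skm-/- array and 8.28 on the control array, a difference of −0.16 and a ratio of 0.896. Esrrb, known mainly from embryonic stem cells and placenta, had 5.67 on the PGC-1β(i)skm-/- array and 5.88 on the control array, a difference of −0.22 and a ratio of 0.861. Both were lower in the mutant pool without reaching the threshold, and of all genes 7.50% had a difference at or below that of Esrra and 3.35% at or below that of Esrrb. Esrrb was the dimmest member, in the second of the 4 signal bins. There the SD of the difference over genes was 0.126, the largest of the 4 bins, and no measure of detection was used. Esrrg, a receptor that promotes an oxidative and vascularized muscle, had 7.92 on the PGC-1β(i)skm-/- array and 7.86 on the control array, a difference of 0.06 in the other direction. The difference of Esrra minus that of Esrrg was −0.22, a contrast without an error.

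Of the nuclear respiratory factors, Gabpa had a signal of 8.18 on the PGC-1β(i)skm-/- array and 8.29 on the control array, a difference of −0.11. Nrf1 had 7.12 on the PGC-1β(i)skm-/- array and 7.18 on the control array, a difference of −0.06. These lie within the bulk of genes, with 15.2% of all genes at or below the difference of Gabpa and 27.5% at or below that of Nrf1. Ppara, the PPAR of fatty acid oxidation in liver and muscle, had 8.57 on the PGC-1β(i)skm-/- array and 8.68 on the control array, a difference of −0.11. Ppard, the PPAR isotype that promotes oxidative fibres, had 9.10 on the PGC-1β(i)skm-/- array and 9.17 on the control array, a difference of −0.08. Of all genes, 13.8% had a difference at or below that of Ppara and 22.4% at or below that of Ppard.

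Over the 7 partner factors, 6 had a difference below 0 (50.2% of all genes did), and none was past a threshold. The 9 members other than Ppargc1b had a median difference of −0.08, between −0.22 (Esrrb) and 0.11 (Ppargc1a), that is changes of −13.9% to 7.75%. At the looser ratio of 1/1.2 or less, which 1.69% of all genes met, Ppargc1b was still the 1 member that was lower. In the order from the lowest, the differences ran Ppargc1b, Esrrb, Esrra, Ppara, Gabpa, Ppard, Nrf1, Pprc1, Esrrg and Ppargc1a. Neighbours after Ppargc1b in this order were apart by less than the SD of 0.12 over genes, and with 1 array per genotype their order has no support from replicates.

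**Figure D2:**
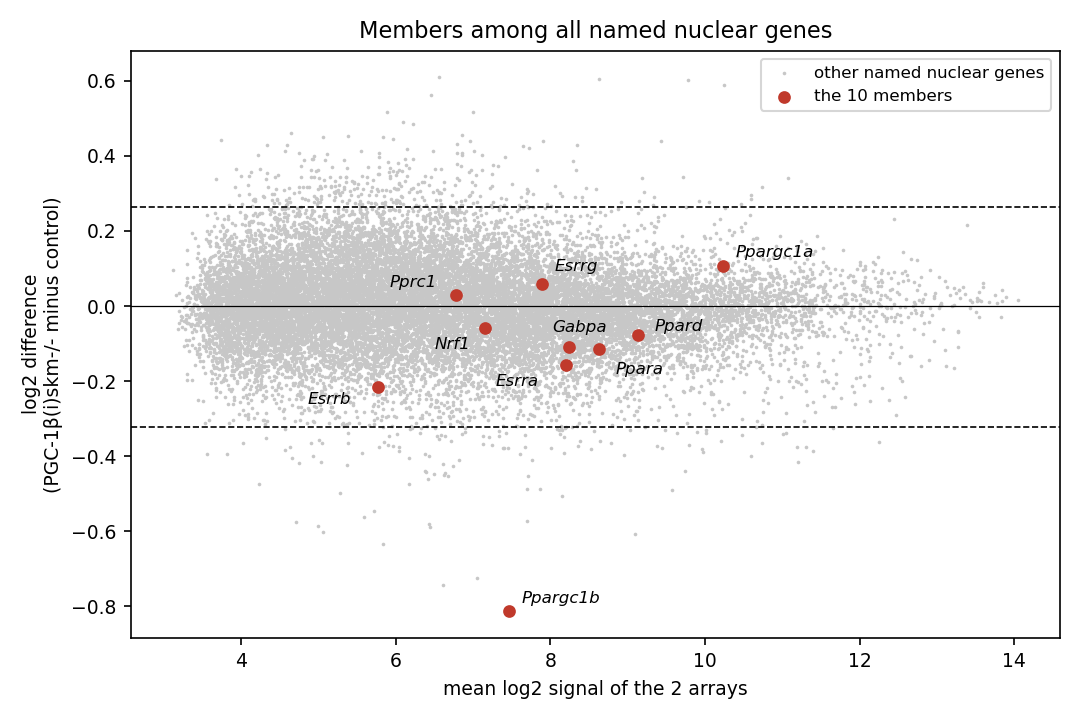
Log2 signal in PGC-1β(i)skm-/- less that in control (vertical axis), against the mean log2 signal of both arrays (horizontal axis), for all 19936 named nuclear genes (grey) and the 10 members (red); dashed lines are ratios of 0.8 and 1.2. Ppargc1b at −0.81 lies below all other points, and the other members lie between −0.22 and 0.11, inside the cloud.

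Factors that pair with the members had differences close to 0. RXR receptors are the obligate partners of PPARs, and GABPB subunits supply the activation domain of GABPA. Of these 8 genes, none was past a threshold, 5 were below 0 and the median was −0.02. Rxrg, the RXR of skeletal muscle, had a difference of 0.03, Rxra of −0.03, Rxrb of −0.05, Gabpb1 of −0.01 and Gabpb2 of −0.06. Pparg, the PPAR of adipocytes, was at 0.10. Hcfc1, a cofactor of GABP, was at −0.05 and Yy1, a zinc finger factor that PGC-1α coactivates, at 0.0052.

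Coregulators that act with PGC-1 were centred on 0. Of 21 such genes listed, 18 were measured, with none past a threshold, 8 below 0 and a median of 0.0051. The acetyltransferase genes Crebbp and Ep300 had differences of 0.05 and 0.03, Med1, a Mediator subunit contacted by nuclear receptors, of −0.07, and Sirt1, a deacetylase of PGC-1α, of −0.08. Nrip1, encoding the corepressor RIP140, was at 0.0086. Fbxw7, a ubiquitin ligase subunit that marks PGC-1α for degradation, had 6.67 on the PGC-1β(i)skm-/- array and 6.89 on the control array, a difference of −0.21. Nr0b2, an inhibitory orphan receptor known from liver, was at 0.20 with a dim mean signal of 4.73. Ncoa1, a p160 coactivator, was at −0.12.

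Regulators upstream of PGC-1α were likewise centred on 0, with all 20 measured, none past a threshold, 10 below 0 and a median of −0.0015. The largest differences were those of Crtc1, a coactivator of CREB (0.21), Foxo3 (0.19), Prkag3, the AMP kinase subunit of fast muscle (0.19), and Creb1 (−0.08). Mef2a, one of the MEF2 factors that bind the Ppargc1a promoter in muscle, was at 0.0001. Of 10 factors known as partners of PGC-1β in liver and related receptors, 9 were measured, none was past a threshold and 5 were below 0, with a median of −0.02. Their largest differences were those of Mlx (−0.14), Foxa2 (0.11), Thra (−0.06) and Srebf1 (0.05), and Foxa2 was dim with a mean signal of 5.85.

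Targets of the partner factors were described with 4 lists from textbook knowledge, not from binding data of these muscles, and chosen with earlier results of these data known, so that their direction is not an independent result. Together they held 60 measured genes, of which 52 had a difference below 0, 6 were lower, 1 was higher and the median was −0.12. Of all named nuclear genes, 50.2% had a difference below 0, 0.652% were lower and 1.64% were higher. The lists overlap, with 11 genes in more than 1 of them.

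Of the 20 ERR targets listed, 17 were measured, each had a difference below 0, and 3 were lower. These were Sdhb, of complex II, with 11.00 on the PGC-1β(i)skm-/- array and 11.41 on the control array (difference −0.42), Cox5b, of complex IV (−0.36), and Ndufs1, of complex I (−0.34). The median was −0.16. At the other end of the list, Pdk4, the kinase that shuts off pyruvate dehydrogenase, had 13.20 on both arrays (difference −0.0001), although it is a textbook target of ERRs and PPARs alike. Cs, citrate synthase, was at −0.05 and Slc25a4, the muscle ADP/ATP carrier, at −0.07. With the 10 genes on no other target list, the median was −0.16 and all 10 were below 0. The same restriction left 8 NRF-1 targets, with a median of −0.19 and 5 below 0. It left 10 GABP targets (median −0.06, 9 below 0) and 21 PPAR targets (median −0.11, 17 below 0).

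Of the 14 NRF-1 targets, all were measured, 11 were below 0, 1 was lower (Cox5b) and 1 was higher, with a median of −0.15. Uqcrq and Uqcrh, of complex III, had differences of −0.31 and −0.27, and Alas1, the first enzyme of haem synthesis, of −0.22. The higher one was Cox6a1, of complex IV, with 8.30 on the PGC-1β(i)skm-/- array and 8.01 on the control array (0.29), and Cox17, a copper chaperone of complex IV, was at 0.20. Of 18 GABP targets, 17 were measured, 16 were below 0 and 4 were lower, with a median of −0.07. The 4 were Sdhb, Cox4i1, with 11.12 on the PGC-1β(i)skm-/- array and 11.49 on the control array (−0.37), Sdhd (−0.36) and Cox5b. The acetylcholine receptor subunits Chrne and Chrnd, known GABP targets of the neuromuscular junction, had differences of −0.02 each.

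Of 28 PPAR targets, 24 were measured, 20 were below 0 and 1 was lower, with a median of −0.11. The lower one was Acadvl, which opens β-oxidation of very long-chain fatty acids, with 9.32 on the PGC-1β(i)skm-/- array and 9.65 on the control array (−0.33). Decr1 (−0.23), Acadm (−0.20) and Slc22a5, the carnitine transporter (−0.20), followed. The list ended at 0.11 with Fgf21, named after its value was seen, which had a dim mean signal of 5.39.

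Genes of mitochondrial DNA transcription and replication had a median of −0.13, with 9 of 10 measured, 6 below 0 and 1 lower. Tfam, which packages mitochondrial DNA, had 8.07 on the PGC-1β(i)skm-/- array and 8.32 on the control array, a difference of −0.25 at rank 400 from the lowest. The study's quantitative RT-PCR found similar Tfam transcript levels in gastrocnemius of both genotypes at 8 weeks. Tefm, the mitochondrial elongation factor, was at −0.29, Twnk, the helicase, at −0.17, Tfb2m at −0.13 and Tfb1m at −0.09. Mterf2 was the lower one, with 6.04 on the PGC-1β(i)skm-/- array and 6.37 on the control array (−0.33). Polrmt, the mitochondrial RNA polymerase itself, was at 0.07. Of 8 genes listed as responding to PGC-1α in muscle, 6 were measured and 1, Gamt, was higher (0.44), with a median of 0.11. Gamt, an enzyme of creatine synthesis, had been put on this list with its value known, and the 5 others had a median of 0.06, with Bdnf and Metrnl at 0.16 each and Angpt2 at 0.06. With genes of a mean signal under 7 left out, the median of this list was 0.01.

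**Figure D3:**
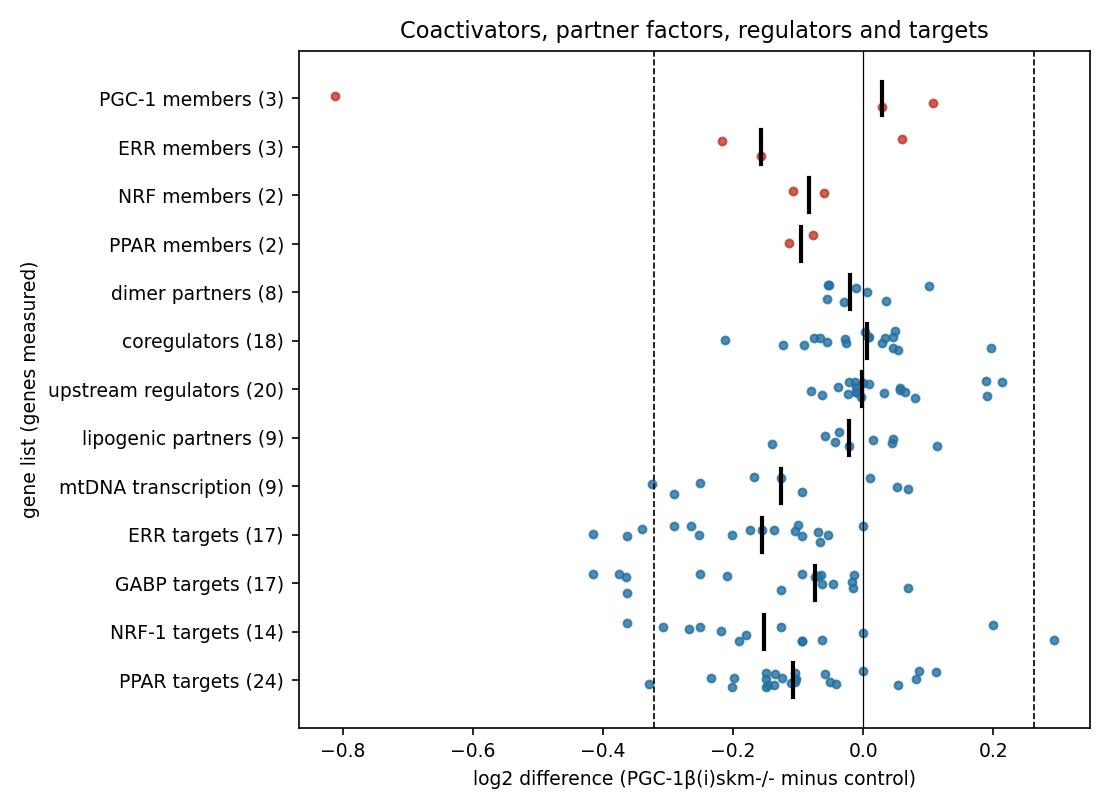
Log2 signal in PGC-1β(i)skm-/- less that in control (horizontal axis), of each measured gene of the members (red) and of 9 lists of partners, regulators and targets (blue), with the number measured beside each list (vertical axis); black bars are medians and dashed lines are ratios of 0.8 and 1.2. Medians of coregulators and upstream regulators lie near 0, those of ERR, NRF-1 and PPAR targets between −0.16 and −0.11.

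Markers of several other cell types had differences above 0, whereas most targets were below 0. Beside them, 1.64% of all named nuclear genes were higher, 0.652% were lower and 50.2% had a difference below 0. All 9 macrophage markers were above 0, 5 of them higher, with a median of 0.27, and their summed linear signal was 1869 on the PGC-1β(i)skm-/- array and 1561 on the control array. All 10 connective tissue markers were above 0, 3 of them higher, with a median of 0.20 and sums of 15371 on the PGC-1β(i)skm-/- array and 13454 on the control array. Of 8 endothelial markers, 6 were above 0 (median 0.08), of 5 satellite cell markers 4 were (median 0.18), and of 7 adipocyte markers measured 3 were (median −0.04, and 0.01 with genes of a mean signal under 6 or under 7 left out). The 4 nerve and Schwann cell markers measured were below 0 (median −0.11, and −0.21 with genes of a mean signal under 7 left out), with Mbp lower (−0.34), and of 2 blood markers measured 1 was below 0. The summed signal of the skeletal muscle markers was 146398 on the PGC-1β(i)skm-/- array and 146038 on the control array. Whether these shifts had a part in the differences of the members or their targets was not tested.

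The promoters of the members were set beside those of all genes, since the partner factors bind DNA and their own genes could hold each other's motifs. RefSeq windows (GRCm38.p6) of 300 bases, 250 before and 50 after a transcription start, were available for 9 of 10 members, in 14 windows. Ppargc1b, the deleted gene, had no window, so that its promoter was not searched. The motifs searched on both strands were TNAAGGTCA for ERRs, in 1.28% of all windows, CCGGAAGT for GABP, in 3.89%, and GCGCANGCG for NRF-1, in 6.25%. AGGTCA repeated after a single base, for PPARs, was in 0.0396%. The ERR motif ends in that AGGTCA, so that both can overlap. No member window held the motif of ERRs, GABP or PPARs, and 2 held that of NRF-1, those of Esrra and Ppara. Of the printed windows, these 2 are the members with a match, Tfam is the gene of mitochondrial DNA maintenance among the 4 target genes with the GABP motif, and Sdhd was the 1 of 48 target genes with a window that held the ERR motif. The matches are in capitals, GCGCACGCG in Esrra, GCGCATGCGC, which reads the same on both strands, in Ppara, and CCGGAAGT in Tfam. In Sdhd, GCGCACGCG of NRF-1 comes first and TGACCTTGA, the ERR motif on the other strand, second.
Esrra, chr19:6921759-6922058, minus strand: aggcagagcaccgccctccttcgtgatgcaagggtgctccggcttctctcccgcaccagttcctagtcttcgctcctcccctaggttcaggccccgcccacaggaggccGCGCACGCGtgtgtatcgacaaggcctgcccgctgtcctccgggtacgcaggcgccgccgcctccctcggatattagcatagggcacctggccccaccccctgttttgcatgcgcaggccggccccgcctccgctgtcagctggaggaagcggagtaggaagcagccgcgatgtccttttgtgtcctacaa
Ppara, chr15:85735526-85735825, plus strand: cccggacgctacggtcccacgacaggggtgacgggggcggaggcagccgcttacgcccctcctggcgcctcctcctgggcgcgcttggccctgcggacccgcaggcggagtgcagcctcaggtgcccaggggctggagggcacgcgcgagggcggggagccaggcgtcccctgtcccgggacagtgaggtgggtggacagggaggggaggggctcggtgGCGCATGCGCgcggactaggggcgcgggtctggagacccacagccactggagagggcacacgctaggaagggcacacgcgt
Tfam, chr10:71237995-71238294, minus strand: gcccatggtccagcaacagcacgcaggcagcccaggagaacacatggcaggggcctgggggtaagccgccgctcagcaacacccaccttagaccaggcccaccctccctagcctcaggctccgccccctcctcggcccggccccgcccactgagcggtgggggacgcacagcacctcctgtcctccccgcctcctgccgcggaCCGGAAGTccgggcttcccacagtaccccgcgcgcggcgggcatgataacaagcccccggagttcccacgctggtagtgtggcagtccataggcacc
Sdhd, chr9:50603800-50604099, minus strand: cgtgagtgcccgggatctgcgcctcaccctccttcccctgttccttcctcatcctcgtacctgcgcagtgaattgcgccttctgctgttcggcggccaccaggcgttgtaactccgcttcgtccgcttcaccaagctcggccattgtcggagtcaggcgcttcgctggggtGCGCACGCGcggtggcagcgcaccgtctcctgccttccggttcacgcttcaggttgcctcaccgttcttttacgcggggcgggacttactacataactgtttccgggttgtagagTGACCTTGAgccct
Esrra and Ppara, the members with an NRF-1 match, had differences of −0.16 and −0.11. Tfam was at −0.25 and Sdhd, of complex II, had 10.55 on the PGC-1β(i)skm-/- array and 10.92 on the control array (−0.36). The ERR motif of Sdhd lies at bases 37 to 45 after its start, and 151 bases of this window belong also to the window of Timm8b, an import chaperone transcribed from the other strand. Timm8b, named after its value was seen, had 11.26 on the PGC-1β(i)skm-/- array and 11.28 on the control array (−0.03). Of the 48 target genes with a window, 13 (27.1%) held the NRF-1 motif, against 1638 of all 15614 genes with a window and a value. These 13, not all of them on the list of NRF-1 targets, had a median difference of −0.16, with 10 below 0. Of all 60 target genes measured, 52 were below 0 and the median was −0.12. The GABP motif was present in 4 of the 48 target genes (8.33%), against 6.01% of all genes with a window and a value. They were Tfam, Uqcrh and, named after their values were seen, Cpt2 and Slc25a20, with a median of −0.19 and all 4 below 0. The target lists were drawn from known targets, a choice that is not independent of the motifs. A match is a description of letters and not a bound site.

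Over all genes, the motifs of the partner factors went with small differences. Of 15614 genes with a window and a value, 50.8% were below 0, 0.628% were lower and 1.65% higher. Of the 939 genes with the GABP motif, 60.4% were below 0, with a median difference of −0.03, and 5 (0.532%) were lower. Of the 1638 genes with the NRF-1 motif, 59.4% were below 0, with a median of −0.02, and 12 (0.733%) were lower. Genes with either motif were brighter than all genes with a window, with median mean signals of 7.86 for each motif, against 6.55, and their windows had more G and C, 60.3% for GABP and 63.2% for NRF-1, against 57.5%. With a loess curve on mean signal subtracted, medians were −0.016 for GABP and −0.010 for NRF-1. That of all genes with a window was then −0.00084. With genes of a mean signal under 7 left out, medians were −0.029 for GABP and −0.022 for NRF-1, against −0.014. The part of signal and base composition was not tested. The 182 genes with the ERR motif had a median of 0.0017, and 48.4% were below 0. Their median mean signal was lower than that of all genes with a window, at 5.80, and their windows had less G and C (51.7%). Of the 182, 4 (2.20%) were lower, namely Gpx2 (−0.42), Sdhd, Glrx3 (−0.36) and Msrb2 (−0.32), and Gpr161 (0.31) and Apol10a (0.40) were higher. Gpx2, Gpr161 and Apol10a were dim, with 4.83, 5.57 and 4.42 on the PGC-1β(i)skm-/- array and 5.24, 5.26 and 4.02 on the control array. Gpx2, Glrx3, Msrb2, Gpr161 and Apol10a were named after their values were seen. With the shorter ERR core AAGGTCA, chosen after the data were seen, 699 genes had a median of −0.0087. The study searched a much longer promoter region of its most downregulated genes. It reported putative ERR elements in all of them, and its search added no gene with an NRF-1 site. Its window, motifs and genes differ from those used here, where sites outside the window were not searched. The PPAR repeat was present in 8 genes, too few to describe.

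**Figure D4:**
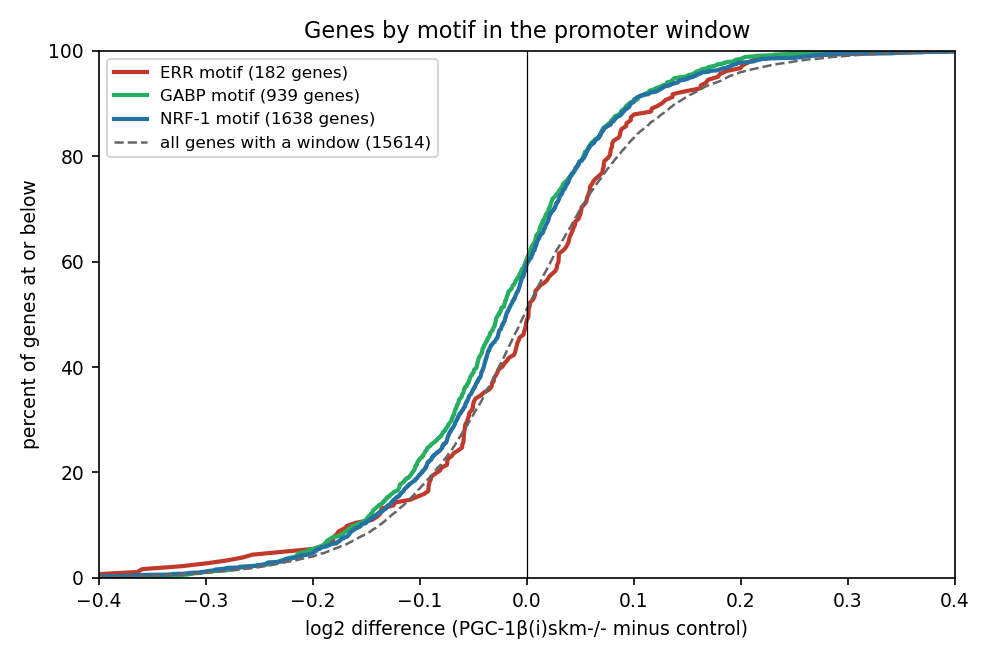
Percent of genes (vertical axis) at or below each log2 difference between PGC-1β(i)skm-/- and control (horizontal axis), for genes whose promoter window holds the motif of ERRs (red, 182 genes), GABP (green, 939) or NRF-1 (blue, 1638), and for all 15614 genes with a window (dashed). At a difference of 0 the GABP and NRF-1 curves stand at 60.4% and 59.4%, and the dashed curve at 50.8%; the axis is limited to differences between −0.4 and 0.4.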

How the data were processed

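RNA of gastrocnemius muscle, pooled from 3 mice per genotype, was hybridized by the authors to Affymetrix Mouse Gene 1.0 ST arrays, 1 per genotype. The authors computed log2 signals, as deposited, for each probe set by RMA (background correction, quantile normalization between arrays and median polish). Quantile normalization hides a change of all genes together, and RMA compresses differences of dim probe sets. No source used here names a genome build for the probe sets.

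Of 35556 probe sets, 21789 had 1 gene symbol in the platform annotation, and 21698 of these were renamed by Entrez ID through RefSeq genes of GRCm38.p6. The 1621 probe sets with several symbols were left out, and 12146 were unnamed. Each gene was represented by its brightest probe set (mean of both arrays), without a filter on signal. The members and lists were chosen with earlier results of these data known. Named genes were all members, for each list up to 4 genes of largest difference and all genes past a threshold (any gene of the lists of partners, coregulators, mitochondrial DNA transcription and ERR, NRF-1 and GABP targets), and the 3 genes most like Ppargc1b. The calls were tested on simulated data with known fold changes. These changes lay well past both thresholds, with less noise than the spread between genes here. Recovery was therefore fixed by the setting and says nothing of differences near a threshold. The number of arrays limits the precision. Alternatives were the mean of probe sets, subtraction of the median difference or of a loess curve on mean signal (span 0.3), signal filters at 6 and 7, and other thresholds. Calculations used Python 3.11.15, pandas 2.3.3, numpy 2.4.6 and statsmodels 0.14.6.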

Additional observations from a re-analysis of the deposited data

How the results depend on the processing

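No paired analysis was possible because each genotype is 1 array and the labels give no shared replicate numbers. With 1 array per genotype no value has an error, and a log2 value was counted as moved at 0.05 or more, a count at more than 1.5 times. The difference of Ppargc1b and the count of 1 lower and 0 higher members held under every alternative run, and the largest move of a member's difference was 0.0301. The medians of the ERR, GABP, NRF-1 and PPAR targets, of mitochondrial DNA transcription and of the ERR, GABP and NRF-1 motif classes moved by less than 0.05 under the alternatives run for them. The medians of these motif classes were themselves within 0.05 of 0, so that they could vanish without counting as moved. With the loess curve subtracted, that of GABP was −0.016 (−0.026 without it) and that of NRF-1 −0.010 (−0.019 without it). Over all genes, 130 were lower and 327 higher. With a filter on mean signal at 6, 155 were higher. At 7, 65 were lower and 67 higher. At a ratio of 1/1.2 or less 336 were lower, and beyond 1.5-fold 8 were lower and 4 higher. The PPAR motif class, of 8 genes, had a median of 0.10, and with fewer genes left by the signal filters a median of −0.026 with the filter at 6 and −0.17 with that at 7. Of list counts, lower PPAR targets numbered 0 with the loess curve subtracted (1 without it), lower genes of mitochondrial DNA transcription 0 with the filter at 7 and 2 at 1/1.2 (1 as reported), lower NRF-1 targets 2 with the mean of probe sets and 3 at 1/1.2 (1 as reported), and lower ERR targets 5 at 1/1.2 (3 as reported). Beyond 1.5-fold, no gene of any list other than the members was called. With the filter at 7, the list of genes responding to PGC-1α had a median of 0.01 (0.11 without it) and nerve and Schwann cell markers −0.21 (−0.11 without it), and with that at 6 or 7 adipocyte markers had 0.01 (−0.04 without it). Of 426 values recomputed, 398 did not move, and many of these could not have moved. The median difference subtracted was −0.00055. Averaging cannot change a gene with 1 probe set, and a count of 0 cannot rise at 1.5-fold. Detection above background was not measured, which limits Esrrb and other dim genes.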
